A study of Mus musculus with 8 samples.

Results

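Nuclei carrying the contractile genes of smooth muscle, or renin, made up 732 of the 81391 nuclei that passed quality control (0.899%) in single-nucleus RNA-seq of 8 mouse kidneys. A nucleus was a member if it held at least 1 unique molecular identifier (UMI, the count of 1 captured RNA molecule) for at least 2 of Myh11, Acta2 and Tagln, or at least 5 Ren1 UMIs, and none for the endothelial gene Flt1. The 686 members with fewer than 5 Ren1 UMIs are called contractile-gene nuclei (0.843% of the nuclei), and the 46 with 5 or more are called Ren1-high nuclei (0.0565%). The members were thus selected on the measured levels of Myh11, Acta2, Tagln, Ren1 and Flt1, so the levels of these genes in the members are given as a description only.

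Vascular smooth muscle cells wrap the renal arteries and arterioles and set the resistance to blood flow. Myosin slides along actin when calcium activates myosin light chain kinase, and the coactivator myocardin, acting with serum response factor, switches on the contractile genes. At the entrance to the glomerulus some smooth muscle cells of the afferent arteriole become juxtaglomerular cells, which store renin, the protease that starts angiotensin formation, and release it when cyclic AMP rises or wall tension falls. Both states are known to interconvert, and the circadian clock is present in vascular cells as in most cells.

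All 8 kidneys came from male mice on a C57BL/6J background that were killed at an age of 14 weeks, at ZT4 (in the light) or ZT16 (in the dark), where ZT counts hours from lights on. Ctrl mice carried Bmal1lox/lox alone. Their cKOt littermates carried Bmal1lox/lox with Pax8-rtTA and LC-1, which place a doxycycline-dependent Cre in the renal tubule, and both genotypes drank doxycycline for 2 weeks from an age of 8 weeks. Each of the 4 groups held 2 mice and 1 library per mouse. Since the Pax8 driver acts in tubular epithelium, the vessels were not the cells meant to lose Bmal1 (gene symbol Arntl).

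The libraries held 8758 to 10975 nuclei each, with 36548873 to 54500820 UMIs and medians of 3003.5 to 4830 UMIs per nucleus. The contractile-gene nuclei had a median of 3046 UMIs and summed to 157350 to 487023 UMIs per library, whereas the Ren1-high nuclei summed to only 5254 to 49088. Levels are given as UMIs per 1000000 UMIs of the same nuclei (CPM), a scale that is not corrected for transcript length, so that levels are compared within a gene. Values of the 8 libraries are listed in the order Ctrl ZT4, Ctrl ZT16, cKOt ZT4 and cKOt ZT16, with replicate 1 before replicate 2. Intervals quoted for pooled counts are exact 95% Poisson intervals and cover counting error only.

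The contractile-gene nuclei numbered 100, 45, 82, 77, 143, 43, 118 and 78. They fell into 2 kinds by the rule's own genes. In 321 nuclei Myh11, the smooth muscle myosin heavy chain, was detected with Acta2, Tagln or both (41, 35, 37, 27, 64, 36, 46 and 35 nuclei). In the other 365 nuclei Acta2, smooth muscle α-actin, and Tagln, the actin-binding protein transgelin, were detected without Myh11 (59, 10, 45, 50, 79, 7, 72 and 43 nuclei). The first kind is called Myh11-positive and the second Acta2 and Tagln only, and their nuclei had medians of 2938 and 3162 UMIs. The split rests on low counts. Myh11-positive nuclei had medians of 2 Myh11, 1 Acta2 and 1 Tagln UMIs, and the second kind had medians of 0, 1 and 2. A missing Myh11 UMI therefore need not mean that the RNA was absent. Myh11-positive nuclei numbered 27 to 64 per library, whereas the second replicate of ZT4 in each genotype held far fewer nuclei with Acta2 and Tagln only than the other 6 libraries. These nuclei made up 53.2% of the contractile-gene nuclei overall and 16.3% to 64.9% within a library.

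**Figure D1:**
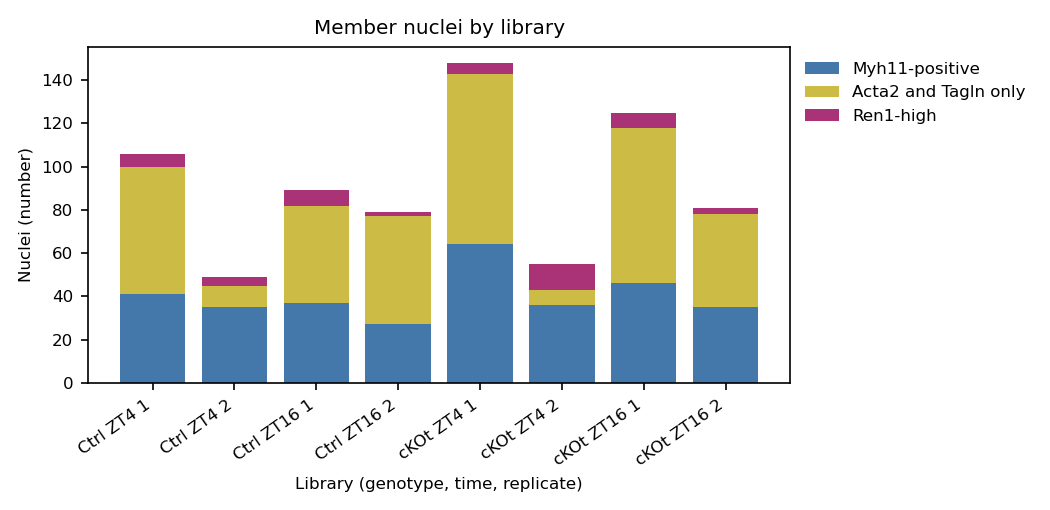
Number of member nuclei (y axis) in each of the 8 libraries (x axis: genotype, time and replicate), stacked by kind. The Myh11-positive part of the bars lies between 27 and 64 nuclei, whereas the part with Acta2 and Tagln only falls to 10 and 7 nuclei in replicate 2 of Ctrl ZT4 and of cKOt ZT4.

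Of all UMIs in quality-controlled nuclei, the members held 59.3% of the 2663 on Myh11, 52.5% of the 3496 on Acta2, 27.8% of the 4026 on Tagln and 58.0% of the 1036 on Ren1. The remainder lay in other nuclei. Among 27699 proximal tubule nuclei, an epithelium that should lack the contractile genes, Acta2 had a UMI in 0.736% and Myh11 in 0.495%. Proximal tubule nuclei that met the rule were left out beforehand, so these shares do not count them. Tagln had a UMI in 1.03% (exact binomial 95% interval 0.913 to 1.15) and Ren1 in 0.264% (0.207 to 0.331), at a median of 5891 UMIs per nucleus. These intervals pool the nuclei of 8 mice and leave out the spread between mice. Tagln was found in 8 of 3370 such nuclei in replicate 2 of cKOt ZT4 and in 68 of 3780 in replicate 1 of cKOt ZT16. Just outside the rule, 3079 nuclei without Flt1 held only 1 of the 3 contractile genes, while of the 686 contractile-gene nuclei 580 held exactly 2 and 106 held all 3. Flt1 removed 73 nuclei from the contractile arm and 3 from the renin arm. Doublet calls marked 39 of the 686 contractile-gene nuclei (5.69%) and 4 of the 46 Ren1-high nuclei (8.70%), compared with 5.37% of all nuclei.

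The label was checked against smooth muscle genes that the rule did not use, and the nuclei with Acta2 and Tagln only did not carry all of them. Myocd, the gene of myocardin, was at 217 CPM in Myh11-positive nuclei (267 UMIs, interval 192 to 245) and had 0 UMIs in the 1354263 UMIs of the nuclei with Acta2 and Tagln only. Cnn1, calponin, was at 50.4 CPM against 0 UMIs, and Actg2, smooth muscle γ-actin, at 74 CPM against 0 UMIs. Of the 321 Myh11-positive nuclei, only 82 held a Myocd UMI, 21 a Cnn1 UMI and 10 an Actg2 UMI. Each of these genes was thus undetected in most Myh11-positive nuclei. A count of 0 is taken to allow up to 3 UMIs, which is a fixed floor and not the end of an exact interval. All 3 genes were also near 0 in the other nuclei of the kidney, with Myocd at 0.674 CPM, Cnn1 at 0.168 CPM and Actg2 at 0.152 CPM. Since Myh11 was absent from these nuclei by the rule, they are named here by the rule and not as smooth muscle.

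Other genes of the contractile apparatus were shared by both kinds of contractile-gene nuclei. Lmod1, the actin nucleator leiomodin, reached 262 CPM in Myh11-positive nuclei and 196 CPM in nuclei with Acta2 and Tagln only, against 6.95 CPM in the other nuclei. Synpo2, an actin-bundling protein, stood at 362 and 221 CPM against 12.6 CPM, and Myl9, a myosin regulatory light chain, at 135 and 164 CPM against 8.98 CPM. Mylk, myosin light chain kinase, was at 1859 CPM in the nuclei with Acta2 and Tagln only and at 1074 CPM in the Myh11-positive ones. Of the 15 genes of the contractile apparatus that the rule did not use, all 15 were more than 2-fold above the other nuclei in Myh11-positive nuclei, 12 were in nuclei with Acta2 and Tagln only, and 9 were in Ren1-high nuclei. Of all 28100 genes with a UMI, 12.7%, 12.7% and 9.15% were in the 3 kinds.

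Pooled levels of several junction, channel and signalling genes were higher in Myh11-positive nuclei than in those with Acta2 and Tagln only. Only a minority of the Myh11-positive nuclei carried some of these genes. Ctnna3 was detected in 33.6%, Trpc6 in 28.0% and Prkg2 in 20.2% of the Myh11-positive nuclei. Ctnna3, an α-catenin of cell junctions, was at 1576 CPM in the former and 5.91 CPM in the latter, Dgkb, a diacylglycerol kinase, at 2081 and 80.5 CPM, and Trpc6, a receptor-operated cation channel, at 226 and 5.91 CPM. Prkg2, a cGMP-dependent protein kinase, was at 140 CPM in Myh11-positive nuclei and had no UMI in the others. Notch3, the Notch receptor of mural cells, stood at 730 and 183 CPM, and Cacna1c, the pore of the L-type calcium channel, at 1471 and 481 CPM. Itpr1, a calcium release channel, went the other way, at 1221 and 1402 CPM. Of the 20 listed genes of calcium handling and ion channels, 14 were more than 2-fold above the other nuclei in Myh11-positive nuclei. In nuclei with Acta2 and Tagln only 8 were, and 12.7% of all genes were in each kind. The highest ratios to the other nuclei of the kidney in Myh11-positive nuclei belonged to Rergl, Rbm24, Myh11, Myocd and Cnn1, among genes with at least 50 UMIs and a ratio above 2 in all 8 libraries.

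Several fibroblast and matrix genes had higher levels in nuclei with Acta2 and Tagln only, but not all. Dcn, the proteoglycan decorin, was at 137 CPM in both kinds of contractile-gene nuclei, and Postn, the matrix protein periostin, was at 22.2 CPM in the former and 74.8 CPM in Myh11-positive nuclei. Fhl2, a LIM-domain cofactor, was at 1816 CPM in nuclei with Acta2 and Tagln only and at 698 CPM in Myh11-positive nuclei, Col14a1, a fibril-associated collagen, at 568 and 219 CPM, and Fbln5, an elastic-fibre protein, at 1040 and 339 CPM. Pdgfra, the growth factor receptor that marks fibroblasts, stood at 387 and 216 CPM and was detected in 60.0% and 31.5% of the nuclei. The 6 stromal markers summed to 1294 CPM in nuclei with Acta2 and Tagln only, 704 CPM in Myh11-positive nuclei, 119 CPM in Ren1-high nuclei and 107 CPM in the others. In Ren1-high nuclei they were at 13.1 CPM without replicate 1 of Ctrl ZT16. The 4 mesangial markers summed to 2076, 948, 709 and 199 CPM in the same order, of which Fhl2 alone gave 1816 and 698 CPM in the first and second. Of the others, Itga8 was at 228 and 201 CPM there and at 32.5 CPM in the other nuclei, and Gata3 was at 29.5 and 47.1 CPM against 49.6 CPM. Ptn, the growth factor pleiotrophin, was lower than in the other nuclei, at 2.22 and 1.63 CPM against 10.1 CPM. The 6 pericyte markers summed to 708 CPM in nuclei with Acta2 and Tagln only, 1539 CPM in Myh11-positive nuclei and 1528 CPM in Ren1-high nuclei. Among them Notch3 stood at 183, 730 and 848 CPM in the same order, whereas Pdgfrb stood at 405, 300 and 248 CPM.

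**Figure D2:**
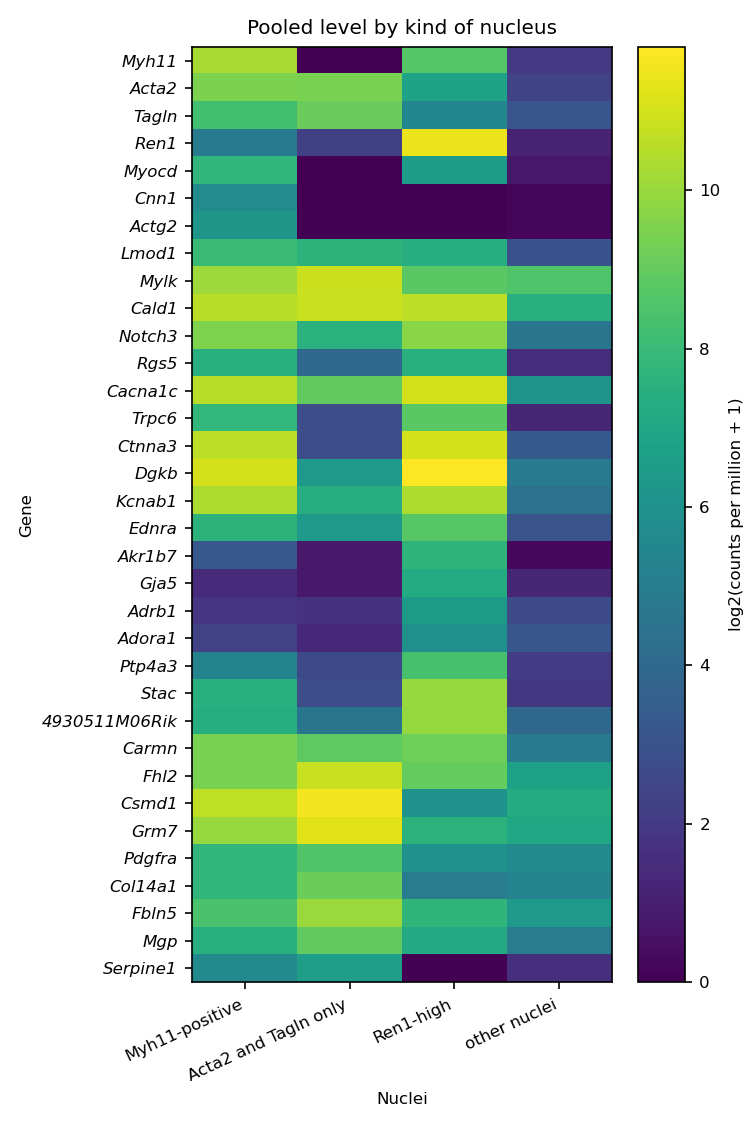
Pooled level of 34 genes (rows) in the 3 kinds of member nuclei and in all other nuclei (columns), as log2(CPM + 1) by colour. Myocd, Cnn1 and Actg2 have no UMI in the nuclei with Acta2 and Tagln only, where Fhl2 and Csmd1 are high, and Akr1b7, Gja5 and Stac are highest in the Ren1-high column.

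Tubular transcripts were present in all 3 kinds. The 6 proximal tubule markers summed to 1691 CPM in Myh11-positive nuclei, 1478 CPM in nuclei with Acta2 and Tagln only and 3075 CPM in Ren1-high nuclei, against 5263 CPM in the other nuclei. In Ren1-high nuclei this sum ranged from 0 to 4889 CPM between libraries. Replicate 1 of Ctrl ZT16 gave 240 of its UMIs and replicate 1 of cKOt ZT16 gave 211. Leaving out the former gave 2491 CPM and leaving out the latter 2618 CPM. Markers of the thick ascending limb summed to 1622, 746, 605 and 4039 CPM, and to 368 CPM in Ren1-high nuclei without replicate 2 of cKOt ZT16. Of the contractile-gene nuclei, 599 of 686 held at least 3 UMIs on markers of tubular, podocyte, endothelial or immune cells. Markers of adipocytes were at 4.06, 0 and 19.8 CPM, the last at 6.56 CPM without replicate 2 of cKOt ZT4.

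Long noncoding RNAs took 13.0% of the UMIs in Myh11-positive nuclei, 10.7% in nuclei with Acta2 and Tagln only, 15.5% in Ren1-high nuclei and 16.0% in the other nuclei. Malat1 supplied most of these, and without it the shares were 3.48%, 3.16%, 3.86% and 3.85%. Carmn, a long noncoding RNA known from smooth muscle, was at 687, 472 and 585 CPM in the 3 kinds and at 27.7 CPM in the other nuclei, and was detected in 81.0%, 72.3% and 84.8% of the nuclei. Atcayos had the highest ratio among the long noncoding RNAs with at least 20 UMIs in Myh11-positive nuclei, at 20.3 CPM, with no UMI in nuclei with Acta2 and Tagln only. Gm20755 had the highest ratio in the latter, at 28.8 CPM against 1.54 CPM in the other nuclei.

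The 46 Ren1-high nuclei numbered 6, 4, 7, 2, 5, 12, 7 and 3 in the 8 libraries. They had a median of 3242.5 UMIs in all and 5 to 48 Ren1 UMIs each, with a median of 9, and 17 nuclei held at least 10 and 8 at least 20. At the threshold, 5 nuclei without Flt1 held 4 Ren1 UMIs and 9 held 5, while 247 held 1. Of the 46 nuclei 24 also had a Myh11 UMI, 15 an Acta2 UMI and 6 a Tagln UMI. A further 13 had none of the 3, and 11 had at least 2, which would have made them members without Ren1. Ren1-high nuclei carried between 32.1% and 71.2% of all Ren1 UMIs of a library.

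**Figure D3:**
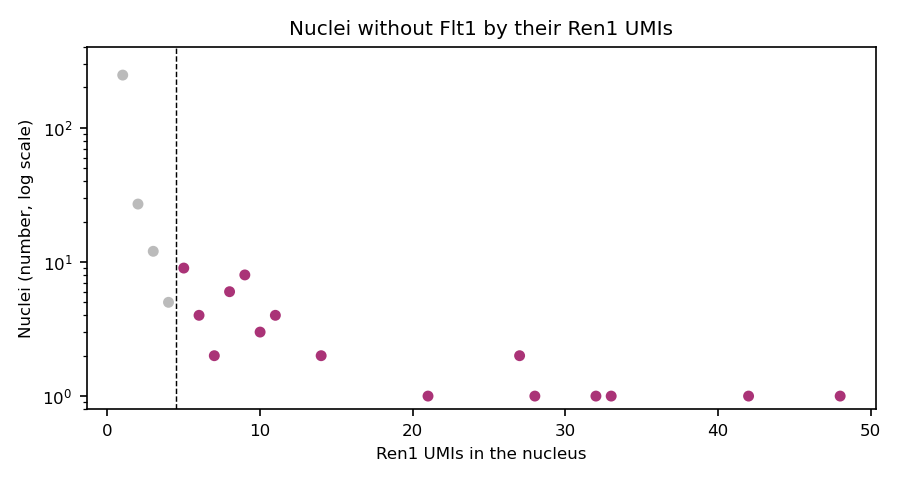
Number of nuclei without Flt1 (y axis, log scale) by the number of Ren1 UMIs in the nucleus (x axis), with nuclei at 0 Ren1 UMIs left out. The dashed line is the rule's threshold. The counts fall from 247 nuclei with 1 UMI to 5 with 4 UMIs, and the 46 nuclei right of the line reach 48 UMIs.

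Some genes known from juxtaglomerular cells were high in Ren1-high nuclei although the rule did not use them. Akr1b7, an aldo-keto reductase expressed together with renin, was at 203 CPM (41 UMIs, interval 146 to 276), compared with 8.94 CPM in Myh11-positive nuclei, 0.738 CPM in nuclei with Acta2 and Tagln only and 0.181 CPM in the other nuclei. Its UMIs in the 8 libraries were 3, 0, 5, 1, 11, 14, 7 and 0, so that Akr1b7 was seen in 6 of the 8. Gja5, connexin 40, which couples juxtaglomerular cells to each other and to endothelium, was at 154 CPM (31 UMIs) against 1.63, 0.738 and 1.45 CPM. Of the 46 Ren1-high nuclei, only 16 held an Akr1b7 UMI and 13 a Gja5 UMI. Gjc1, connexin 45, differed less, with 99.2 CPM in Ren1-high nuclei and 109 CPM in Myh11-positive nuclei.

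Of the receptors of renin release named here, all but Agtr1a were detected at low counts in Ren1-high nuclei. Adrb1, the β1-adrenergic receptor through which sympathetic nerves stimulate release, was at 84.3 CPM (17 UMIs, 49.1 to 135) against 2.44 CPM in Myh11-positive nuclei. Adora1, the adenosine receptor that inhibits release, was at 59.5 CPM (12 UMIs, 30.8 to 104) against 4.06 CPM. Ptger2, a prostaglandin E2 receptor coupled to cyclic AMP, was at 34.7 CPM (7 UMIs) against 4.06 CPM. Casr, the calcium-sensing receptor, was lower than in the other nuclei of the kidney, at 9.92 CPM (2 UMIs) against 78.7 CPM. In Myh11-positive nuclei Casr was at 34.1 CPM (42 UMIs in 12 nuclei), and 2 UMIs are too few to tell these kinds apart. Agtr1a, the angiotensin II receptor that feeds back on renin, was detected in 73.9% of Ren1-high nuclei at 625 CPM, and in 53.6% and 66.8% of the 2 kinds of contractile-gene nuclei at 349 and 534 CPM. Pde3a, a phosphodiesterase that degrades cyclic AMP, had a UMI in every Ren1-high nucleus and stood at 2793 CPM against 138 CPM in the other nuclei of the kidney. It was also detected in 92.5% of Myh11-positive nuclei and 92.9% of those with Acta2 and Tagln only, at 1980 and 1750 CPM. Of the 23 genes listed for juxtaglomerular identity and renin release, 11 were more than 2-fold above the other nuclei in Ren1-high nuclei, where 9.15% of all genes were, and 8 were in each kind of contractile-gene nuclei, where 12.7% were.

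Other genes that led the Ren1-high nuclei were also found in Myh11-positive nuclei, at lower levels. Stac, a channel-binding adaptor, was at 1002 CPM in Ren1-high nuclei (14, 4, 56, 10, 24, 49, 40 and 5 UMIs) and at 180 CPM in Myh11-positive nuclei. Ptp4a3, a phosphatase, was at 332 and 37.4 CPM, Kirrel3, an adhesion protein, at 1934 and 126 CPM, and the long noncoding RNA 4930511M06Rik at 972 and 162 CPM. Several contractile genes were lower in Ren1-high nuclei. Mylk was at 446 CPM in Ren1-high nuclei against 1074 CPM in Myh11-positive nuclei, Tpm1, a tropomyosin, at 347 against 1205 CPM, and Cnn1 and Actg2 had no UMI, which at the 201607 UMIs of these nuclei allows up to 3. Cald1, the actin-binding protein caldesmon, was not lower, at 1567 against 1517 CPM. Dgkb (3581 CPM), Ctnna3 (2088 CPM) and Cacna1c (2123 CPM) were as high as or higher than in Myh11-positive nuclei.

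The 250 bases before the annotated start of Ren1 are shown because Ren1 defines these nuclei and because this short stretch carries a TATA element. The sequence is RefSeq's on GRCm38.p6, chr1:133350424-133350673 on the + strand, directly upstream of exon 1, written 5′ to 3′ with the element in capitals.
Ren1: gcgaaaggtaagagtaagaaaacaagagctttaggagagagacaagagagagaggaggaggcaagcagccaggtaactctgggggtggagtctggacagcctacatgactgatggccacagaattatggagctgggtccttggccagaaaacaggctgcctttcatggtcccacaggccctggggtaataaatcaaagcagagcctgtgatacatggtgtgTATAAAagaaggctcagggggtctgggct
TATAAA was searched on both strands and was found once, ending 23 bases before the start. It was present in 12.4% of 32851 promoter windows of the same length. Among 18 windows of the contractile genes it was found in 3, which belong to Cald1, Pln and Synpo2.

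Clustering of the 732 members by 2000 variable genes, without the genes of the rule, gave 8 clusters that are described by their leading genes other than those of the rule. The clusters were made from the levels of these nuclei, so no test was made. Cluster 1 (251 nuclei, 197 of them with Acta2 and Tagln only) was led by Fhl2, B3galt1, Ak5 and Gucy1a2. Cluster 2 (126 nuclei, 87 with Acta2 and Tagln only) was led by Csmd1, Grm7 and Pcdh9, with Mgp and Dcn among its first 15 genes. Cluster 3 (91 nuclei, of which 56 Myh11-positive) was led by 6530403H02Rik and Adamtsl1. Most nuclei with Acta2 and Tagln only lay in these clusters, and the remaining clusters held 5, 0, 27, 14 and 0 of them. Clusters 1, 2 and 3 also held 53, 38 and 56 Myh11-positive nuclei, so pooled levels of Myh11-positive nuclei draw on these clusters as well.

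The Ren1-high nuclei gathered in 2 clusters. Cluster 5 held 26 of them with 57 Myh11-positive nuclei and was led by Ctnna3 (6361 CPM), Dgkb (7109 CPM) and Kcnab1 (4824 CPM), a potassium channel subunit. In clusters 1, 2, 3 and 4 Ctnna3 was at 7.70, 110, 10.5 and 1049 CPM. Cluster 4 held 13 with 69 Myh11-positive nuclei and was led by Dgkb, Slit3 and Notch3, with Rgs5 and Trpc6 among its first 15 genes. Its pericyte markers summed to 4338 CPM. Cluster 8 was a set of 16 Myh11-positive nuclei led by Dpp6, Myocd, Pdlim3, Dmd and Actg2, with Actg2 at 976 CPM. Clusters 6 (48 nuclei) and 7 (30 nuclei) had medians of 6284 and 9392.5 UMIs per nucleus, and doublet calls marked 37.5% and 76.7% of them.

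**Figure D4:**
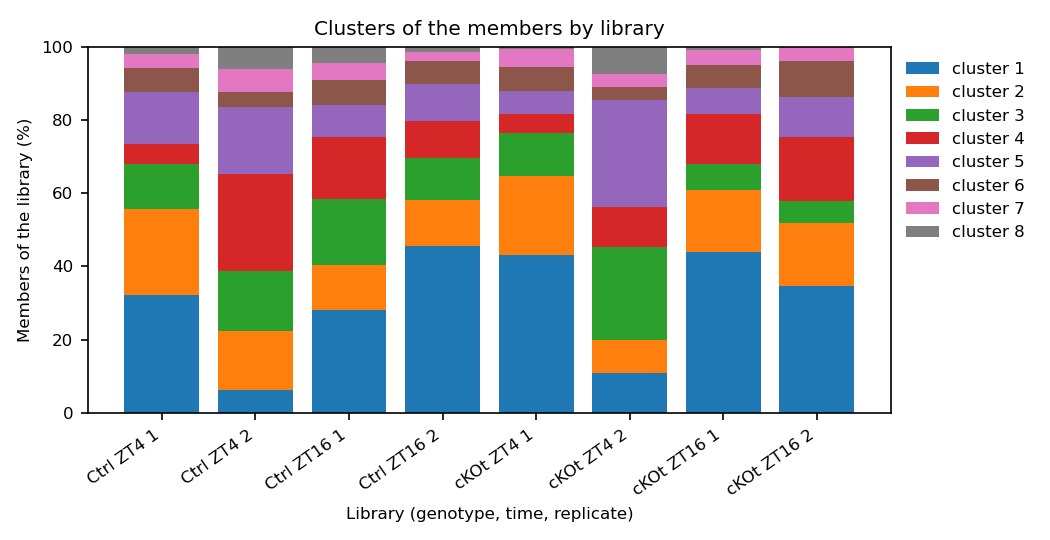
Share of the members of each library (y axis, %) in each of the 8 clusters (colours), by library (x axis). Cluster 1 takes 6.12% and 10.9% of the members in replicate 2 of Ctrl ZT4 and of cKOt ZT4, and 28.1% to 45.6% in the other 6 libraries.

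Whether the frequency of these nuclei depended on time of day or on the tubular clock was asked over the 8 mice. In a nuclear suspension more nuclei of a kind and better release of that kind cannot be told apart. The share of contractile-gene nuclei was 1.01%, 0.451%, 0.770%, 0.717%, 1.38%, 0.429%, 1.35% and 0.711%, so that both the lowest and the highest values came from ZT4 and the groups overlapped. The mean was 0.886% ± 0.309 (SD, n = 4) at ZT16 and 0.817% ± 0.461 at ZT4 (exact permutation test, two-sided, p = 0.829, adjusted over 6 tests 0.829). In cKOt it was 0.966% ± 0.472 and in Ctrl 0.737% ± 0.229 (exact permutation p = 0.457, adjusted 0.686). The smallest p that 4 against 4 libraries can give is 0.0286. The time difference changed sign without replicate 2 of Ctrl ZT4 (by -0.0531 percentage points), without replicate 2 of cKOt ZT4 (-0.0605) and without replicate 1 of cKOt ZT16 (-0.0847). Counting Myh11-positive nuclei only gave -0.0746.

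The share of Ren1-high nuclei was 0.0479% ± 0.0296 at ZT16 and 0.0672% ± 0.0360 at ZT4 (n = 4 each, exact permutation p = 0.457, adjusted 0.686), and 0.0688% ± 0.0402 in cKOt against 0.0463% ± 0.0215 in Ctrl (exact permutation p = 0.371, adjusted 0.686). Ren1 over all nuclei of a library was at 2.68, 2.02, 3.30, 1.21, 2.93, 3.78, 3.94 and 1.71 CPM. Both ends of this range came from ZT16. The means were 2.54 ± 1.29 CPM at ZT16 and 2.85 ± 0.727 CPM at ZT4 (n = 4 each, exact permutation p = 0.714, adjusted 0.829), and 3.09 ± 1.02 CPM in cKOt against 2.30 ± 0.898 CPM in Ctrl (exact permutation p = 0.286, adjusted 0.686). None of these differences passed the test. Without replicate 2 of Ctrl ZT16 the time difference of Ren1 became 0.131 CPM in favour of ZT16.

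Gene levels within the contractile-gene nuclei were compared on UMIs summed per library, for 8853 genes, with edgeR's quasi-likelihood test and Benjamini-Hochberg adjustment. At an adjusted p under 0.05 none of the genes differed between ZT16 and ZT4 (0% called), between cKOt and Ctrl (0% called) or in the interaction of genotype and time (0% called). At an unadjusted p under 0.05 there were 646 genes for time (7.3%; 291 higher and 355 lower at ZT16), 326 for genotype (3.68%; 1.47% of the genes higher and 2.21% lower in cKOt) and 329 for the interaction (3.72%; 2.28% with a positive and 1.43% with a negative sign). A gene was tested where both libraries of any group held at least 5 UMIs, so some genes were tested only through the side where they were high. These were 113 of the 291 genes higher and 77 of the 355 lower at ZT16, and 46 of the 130 higher and 76 of the 196 lower in cKOt, and their differences are given as values that the filter in part selected. DESeq2 on the same sums called 1 gene for time, C330002G04Rik, 1 for genotype, Sgcz, and 0 for the interaction. The counts depended on single libraries. Without replicate 1 of Ctrl ZT4, 47 genes were called for time and 16 for genotype, and without replicate 2 of cKOt ZT4, 2 and 2. An unadjusted p under 0.05 for time was reached by 12.5% of 399 long noncoding RNAs (19 higher and 31 lower at ZT16) and by 7% of 8427 protein-coding genes (269 higher and 321 lower). The Ren1-high nuclei were too few for such a test, with fewer than 10 nuclei in 7 of the 8 libraries.

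Clock genes were among those with time differences at an unadjusted p, although none passed the adjusted threshold. Of the 16 clock genes of the study 15 were tested, 4 were higher and 3 lower at ZT16 at an unadjusted p under 0.05, where 3.29% of all genes were higher and 4.01% lower. The libraries of ZT4 and ZT16 did not overlap for 4. Nr1d1, 1 of the 3 lower genes and among these 4, passed the filter only through the ZT4 groups, where it was high. The filter thus in part selected both counts. Over all 8853 genes 4.31% did not overlap (2.33% higher and 1.99% lower at ZT16). Median log2 differences were 0.06 for the list and -0.0025 for all genes.

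Per2, a repressor of the clock, was at 41.2, 13.5, 112, 142, 37.7, 31.8, 144 and 84.1 CPM. Every ZT16 library was above every ZT4 library, and the log2 difference was 1.90 ± 0.34 (SE; edgeR adjusted p = 0.111). Without the nuclei called as doublets Per2 was 1 of 2 genes called, with a log2 difference of 2.25 (edgeR adjusted p = 0.0413). In Myh11-positive nuclei alone Per2 averaged 18.1 CPM at ZT4 and 110 CPM at ZT16, and in nuclei with Acta2 and Tagln only 50.6 and 128 CPM. The other nuclei of the kidney averaged 47.8 ± 20.4 CPM (SD, n = 4) and 98.1 ± 24.7 CPM.

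Nr1d1, the repressor REV-ERBα, had 14, 5, 0, 1, 7, 5, 0 and 0 UMIs. It was present in every ZT4 library and in 1 of the 4 ZT16 libraries. The pooled ratio of ZT16 to ZT4 was 0.0278 (1 UMI at ZT16 against 31 at ZT4). Its exact 95% interval, 0.000683 to 0.167, covers counting error only and not the spread between mice. Nr1d1 passed the filter only through the ZT4 groups, where it was high, so edgeR's adjusted p of 0.148 is not read as a result. Its paralog Nr1d2 was at 103, 131, 63.6, 65.1, 88.6, 121, 34.9 and 58.2 CPM, without overlap between the times (log2 difference -1.05 ± 0.28, edgeR adjusted p = 0.402).

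Tef, a PAR bZIP output factor of the clock, was at 82.3, 135, 182, 195, 75.3, 76.3, 162 and 178 CPM, higher in every ZT16 library than in any ZT4 library (log2 difference 0.94 ± 0.23, edgeR adjusted p = 0.343). In the other nuclei of the kidney Tef averaged 178 ± 66.0 CPM at ZT4 and 130 ± 31.7 CPM at ZT16 (SD, n = 4). The Ctrl libraries there were at 233 and 235 CPM at ZT4 and at 172 and 138 CPM at ZT16, and the cKOt libraries at 104 and 141 CPM and at 102 and 110 CPM. The difference between both kinds of nuclei was not tested. Cry1 and Cry2, the cryptochrome repressors, were at 20.6 and 30.4 CPM at ZT4 and at 39.6 and 47.7 CPM at ZT16 (log2 differences 1.21 ± 0.47 and 0.95 ± 0.42, edgeR adjusted p = 0.592 and 0.667), and their libraries overlapped. The Cry2 difference turned to -0.20 when all 3 contractile genes were required of a nucleus. Npas2, a partner of BMAL1, averaged 126 CPM at ZT4 and 71.9 CPM at ZT16. Its log2 difference ranged from -1.23 to -0.31 as single libraries were left out.

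The window before the start of Tef is shown because it carries the E-box CACGTG, the element bound by BMAL1 with CLOCK or NPAS2. It is RefSeq's sequence on GRCm38.p6, chr15:81802423-81802672 on the + strand, directly upstream of exon 1, written 5′ to 3′ with the E-box in capitals.
Tef: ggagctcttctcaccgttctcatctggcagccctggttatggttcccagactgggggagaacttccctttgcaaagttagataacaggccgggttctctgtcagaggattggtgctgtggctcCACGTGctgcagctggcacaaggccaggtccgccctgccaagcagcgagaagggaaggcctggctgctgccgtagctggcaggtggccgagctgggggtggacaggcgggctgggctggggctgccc
CACGTG, which reads the same on both strands, ends 121 bases before the start. It was found in 6.02% of 32851 windows, in 6 of 23 windows of the 17 clock genes with a window (26.1%, in Bhlhe41, Ciart, Cry1, Per1 and Tef) and in 0 of 18 windows of the contractile genes.

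**Figure D5:**
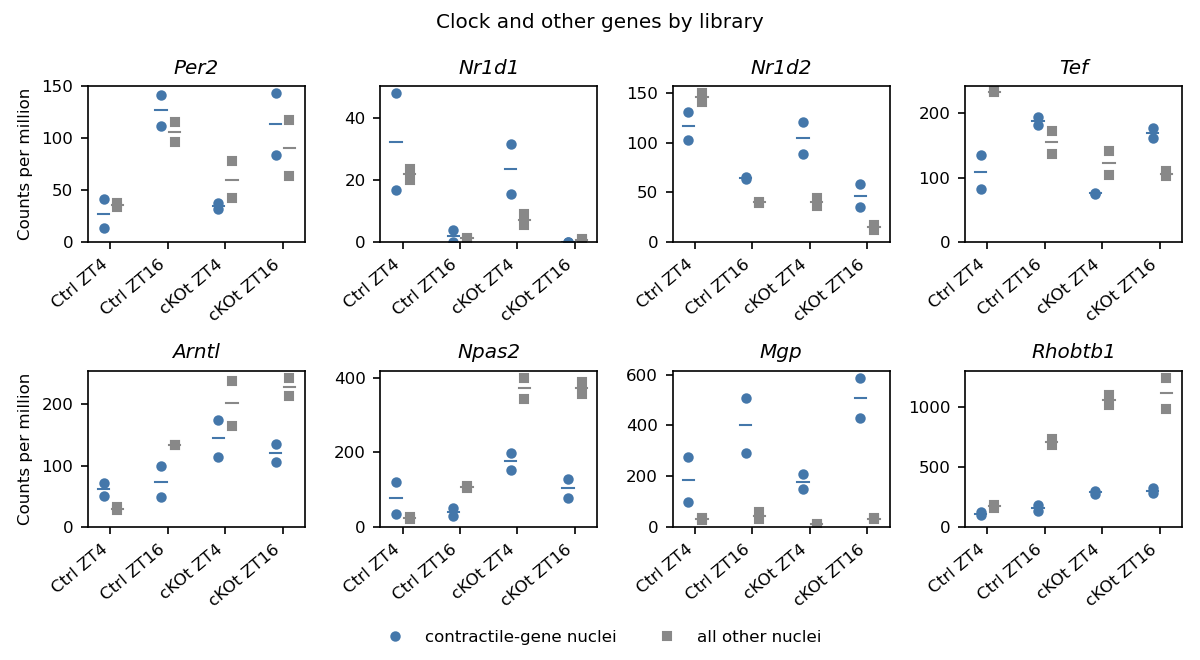
CPM (y axes) of 8 genes in the contractile-gene nuclei (circles) and in all other nuclei of the kidney (squares) of each library, by group (x axes). Lines are means of the 2 libraries of a group. Per2 and Tef are higher at ZT16 in the contractile-gene nuclei, Nr1d1 and Nr1d2 are lower, and the other nuclei show larger genotype differences for Arntl, Npas2 and Rhobtb1.

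No gene of the contractile apparatus passed the adjusted threshold with the main settings. Of 15 tested, 2 had an unadjusted p under 0.05 for time, both lower at ZT16, where 4.01% of all genes were. These were Actg2, with 20, 10, 0, 5, 55, 1, 0 and 0 UMIs (log2 difference -5.11 ± 1.04, edgeR adjusted p = 0.204), and Cnn1, at 103, 23.6, 33.3, 7.65, 8.86, 31.8, 4.11 and 3.24 CPM. Both passed the filter only through Ctrl ZT4, where they were high, so their count is not read as a result. The Actg2 libraries overlapped, and 1 library of cKOt ZT4 held 55 of its 91 UMIs. Actg2 was called with no filter on low counts, and its log2 difference ranged from -7.42 to -3.30 as single libraries were left out. Mylk averaged 1167 ± 446 CPM at ZT4 and 1611 ± 343 CPM at ZT16 (SD, n = 4). Myocd averaged 171 ± 111 and 69.6 ± 23.6 CPM (log2 difference -1.20 ± 0.47, edgeR adjusted p = 0.594), with overlapping libraries. The difference was -0.28 without replicate 2 of cKOt ZT4 and changed to 0.09 when all 3 contractile genes were required of a nucleus. Myocd and Cnn1 came only from Myh11-positive nuclei, while nuclei with Acta2 and Tagln only made up 16.3% to 64.9% of the contractile-gene nuclei of a library, and the part of this share in the differences was not tested.

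Among 11 tested regulators of smooth muscle, Notch3 was at 316, 350, 472, 490, 213, 432, 620 and 647 CPM. All ZT16 libraries were above all ZT4 libraries (log2 difference 0.74 ± 0.23, edgeR adjusted p = 0.497). In Myh11-positive nuclei alone it averaged 437 CPM at ZT4 and 1114 CPM at ZT16. Of 14 tested vasoactive receptors, 3 had an unadjusted p under 0.05, all higher at ZT16, where 3.29% of all genes were. Agtr1a averaged 349 ± 101 CPM at ZT4 and 528 ± 80.3 CPM at ZT16 (log2 difference 0.58 ± 0.24, edgeR adjusted p = 0.638), Adra1b, the α1B-adrenergic receptor, 77.2 ± 18.8 and 115 ± 14.3 CPM, and the third was Ptgir, the prostacyclin receptor, which passed the filter only through cKOt ZT16. Of 16 channel and calcium-handling genes Kcnma1, the large-conductance potassium channel, and Cacna1d were lower at an unadjusted p under 0.05, as were 4.01% of all genes.

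Mgp, matrix Gla protein, an inhibitor of vascular calcification, was at 275, 97.7, 509, 291, 148, 210, 585 and 430 CPM. Its libraries did not overlap between the times (log2 difference 1.28 ± 0.30, edgeR adjusted p = 0.281). In Myh11-positive nuclei alone, a setting added after seeing the data, Mgp was the only gene called (log2 difference 2.56, edgeR adjusted p = 0.0391). It averaged 55.7 ± 37.0 CPM at ZT4 and 330 ± 101 CPM at ZT16 there (SD, n = 4). In nuclei with Acta2 and Tagln only it averaged 575 ± 485 and 531 ± 231 CPM. Of the 14 tested matrix genes, Mgp and Fbln5 were higher at an unadjusted p under 0.05, as were 3.29% of all genes, and 12 had a larger p. The pericyte markers summed to 665 to 1106 CPM in the ZT4 libraries and 1014 to 1415 CPM in the ZT16 libraries. The stromal markers summed to 630 to 1280 and 990 to 1348 CPM, and those of the distal tubule and collecting duct to 82.3 to 605 and 355 to 1624 CPM. Intercalated cell markers went the other way, at 10.1 to 253 and 6.06 to 26.7 CPM. Their part in these differences was not tested.

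The smallest p-values for time belonged to genes chosen after their values were seen. C330002G04Rik, a long noncoding RNA, was at 96.1, 189, 12.1, 11.5, 133, 57.2, 34.9 and 42.1 CPM (log2 difference -2.53 ± 0.37, edgeR adjusted p = 0.0757), and was lower at ZT16 in the other nuclei as well (232 against 122 CPM). Hspa5, a chaperone of the endoplasmic reticulum, averaged 59.0 ± 9.11 CPM at ZT4 and 191 ± 73.3 CPM at ZT16 (log2 difference 1.62 ± 0.29, edgeR adjusted p = 0.111), and 48.6 and 129 CPM in the other nuclei. Bach2, a transcriptional repressor, averaged 242 ± 36.8 and 112 ± 25.3 CPM (log2 difference -1.16 ± 0.21, edgeR adjusted p = 0.111). Among the listed long noncoding RNAs 5 were tested. Carmn averaged 601 ± 122 CPM at ZT4 and 523 ± 122 CPM at ZT16, and Neat1, the scaffold of paraspeckles, 1030 ± 215 and 745 ± 61.1 CPM (log2 difference -0.51 ± 0.22, edgeR adjusted p = 0.638).

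For the comparison of genotypes the targeted gene comes first. Arntl was at 72.0, 50.5, 48.5, 99.5, 175, 114, 107 and 136 CPM in the contractile-gene nuclei, higher in every cKOt library than in any Ctrl library (log2 difference 1.00 ± 0.29, unadjusted p = 0.00421, edgeR adjusted p = 1), as 1.03% of all genes were. Over all genes 2.12% did not overlap between the genotypes, and 1.1% were lower in every cKOt library. In the other nuclei it was also higher in cKOt, at 215 ± 35.9 CPM against 81.6 ± 59.8 CPM (SD, n = 4). The counts come from the 3′ ends of transcripts, which need not lie in the floxed part, so that they are no check of the deletion. Npas2 averaged 140 ± 50.5 CPM in cKOt and 58.5 ± 42.0 CPM in Ctrl (log2 difference 1.29 ± 0.36, edgeR adjusted p = 1), and 373 and 65.5 CPM in the other nuclei. It was called with no filter on low counts, and its log2 difference ranged from 0.99 to 1.91 as single libraries were left out.

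Genes among the 10 with the smallest p for genotype are given here, again chosen after their values were seen. The smallest belonged to Gm33906, a long noncoding RNA, at 0, 3.37, 15.2, 11.5, 79.8, 12.7, 111 and 74.4 CPM (log2 difference 3.75 ± 0.61, edgeR adjusted p = 0.190), with overlapping libraries. It passed the filter only through cKOt ZT16, where it was high. It averaged 65.9 CPM in Ctrl and 272 CPM in cKOt in the other nuclei. Without replicate 2 of cKOt ZT4 the log2 difference was 4.02. Since the filter in part selected Gm33906, its p is not read as a result. Rhobtb1 was at 96.1, 128, 136, 188, 304, 280, 322 and 285 CPM (log2 difference 1.14 ± 0.22, edgeR adjusted p = 0.294), with every cKOt library above every Ctrl library. The difference turned to -0.16 when all 3 contractile genes were required of a nucleus. Rhobtb1 averaged 442 ± 310 CPM in Ctrl and 1088 ± 115 CPM in cKOt in the other nuclei. Umod, uromodulin of the thick ascending limb, averaged 147 ± 31.2 CPM in Ctrl and 63.0 ± 21.0 CPM in cKOt (log2 difference -1.17 ± 0.28, edgeR adjusted p = 0.893), and 457 and 249 CPM in the other nuclei. Sgcz, a sarcoglycan, averaged 205 ± 164 and 30.4 ± 19.7 CPM (log2 difference -2.52 ± 0.47, edgeR adjusted p = 0.294), and 457 and 210 CPM in the other nuclei. The 4 thick ascending limb markers summed to 1039 to 2338 CPM in the Ctrl libraries of contractile-gene nuclei and to 458 to 1546 CPM in the cKOt libraries, with no marker at 0. The part of tubular RNA in these genotype differences was not tested.

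Of the contractile apparatus only Cnn1 had an unadjusted p under 0.05 for genotype, averaging 41.9 ± 42.1 CPM in Ctrl and 12.0 ± 13.4 CPM in cKOt (log2 difference -2.18 ± 0.68, edgeR adjusted p = 1), with overlapping libraries. The difference ranged from -2.60 to -1.45 as single libraries were left out, with the smallest without replicate 1 of Ctrl ZT4. Cnn1 was tested only through Ctrl ZT4, where it was high, and was called with no filter on low counts (edgeR adjusted p = 0.0354). None of the 11 regulators and none of the 18 tested genes of juxtaglomerular identity and renin release had such a p. Ednrb, the endothelin B receptor, was the only 1 of 14 vasoactive receptors and passed the filter only through the cKOt groups, where it was higher, and Postn was the only 1 of 14 matrix genes, against 3.68% of all genes. For the interaction, Cry2 and Dbp were among the clock genes with an unadjusted p under 0.05, as were 3.72% of all genes. Dbp, another PAR bZIP factor, passed the filter only through Ctrl ZT4, where it was high, so its p is not given. It was at 20.6, 26.9, 3.03, 0, 2.22, 6.36, 8.21 and 3.24 CPM, which is 22 UMIs in all.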

How the data were processed

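Single-nucleus RNA-seq libraries (10x Genomics 3′ v3.1, DAPI-sorted nuclei) of 8 kidneys were analysed, 2 mice per group. The counts deposited by the authors are UMIs per gene and barcode for 32285 genes, made with Cell Ranger 7.1.0. The submitters' processing notes also name bcl2fastq 2.20 and Seurat 5. Reads were mapped to mm10 according to the methods but to GRCm39 according to the labels. Coordinates are therefore given only from RefSeq on GRCm38.p6. Of 82784 deposited barcodes, 81391 were kept, each with a minimum of 500 genes and 800 UMIs and no more than 2% of its UMIs on mitochondrial genes. Barcodes shared between libraries numbered 18 to 42 per pair, and 0 were shared among members.

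The members, lists and tests were chosen with earlier results of these data known. The plan was to name the rule's genes, genes of fixed lists (those called, otherwise those with most UMIs), called genes with non-overlapping libraries, and the 15 genes and 5 long noncoding RNAs with the largest ratio to other nuclei (at least 50 or 20 UMIs, ratio above 2 in 8 libraries). In the comparisons of time and genotype, the list genes named were largely those with an unadjusted p under 0.05. They were thus chosen after their values were seen. Other list genes were also named without having the most UMIs. Counts were summed per library and tested with edgeR 4.0.16 (quasi-likelihood, TMM, a means model of 4 groups, genes with at least 5 counts in both libraries of a group, mitochondrial genes and the 5 genes of the rule left out). DESeq2 1.42.0 was an alternative. In data simulated for the time contrast, edgeR called 23 of 78 genes changed 2-fold, 55 of 59 changed 4-fold, 63 of 63 changed 8-fold and 2 of 8653 unchanged genes. The simulated counts had only the spread that edgeR fitted as a trend, without each gene's own spread. These shares therefore do not measure what could be detected in the data. In the data, Nr1d1 and Actg2 were not called at log2 differences of -4.9 and -5.11. Shares of nuclei were compared with exact permutation tests over libraries. Doublets were called with Scrublet in scanpy 1.11.5 and kept in the main analysis. Clusters came from the Leiden algorithm (2000 variable genes, 20 principal components, 15 neighbours, resolution 0.4). Between replicates of a group the counts varied more than sampling alone gives, with a chi-square of 2.22 to 4.48 for each degree of freedom.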

Additional observations from a re-analysis of the deposited data

How the results depend on the processing

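In contractile-gene nuclei, 0 genes were called in each contrast with the main settings, and also with RLE scaling, protein-coding genes only and within a genotype or time. The 5% mitochondrial limit kept the same contractile-gene nuclei, so its 0 calls were fixed in advance. Members without other cell types' markers also gave 0 calls. They numbered only 3 to 27 per library, with 1134 genes tested, so that setting could hardly call a gene. The replicate block also called 0, 0 and 0 genes. Deviations of same-numbered libraries correlated at -0.129 to 0.184 in 6 pairs, 2 of them above 0.1, so the numbers were not read as pairs. For time, genotype and interaction, DESeq2 called 1, 1 and 0 genes, no filter on low counts 60, 35 and 24, nuclei without doublet calls 2, 0 and 0, all 3 contractile genes 1, 2 and 0, and Myh11-positive nuclei, added after seeing the data, 1, 0 and 0. Leaving out a library gave 0 to 47, 0 to 16 and 0 to 0. Without replicate 2 of both ZT4 groups, a choice made after seeing the data, 29, 16 and 0 genes were called. With the causes not tested, the log2 difference turned when all 3 contractile genes were required, to -0.20 for Cry2 and 0.092 for Myocd (time) and -0.16 for Rhobtb1 (genotype). Leaving out a library gave log2 time differences of -1.71 to -0.28 for Myocd, -7.42 to -3.30 for Actg2, -2.51 to -1.07 for Cnn1, 0.85 to 1.97 for Cry1 and 0.61 to 1.20 for Cry2.

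The time difference of the share of contractile-gene nuclei turned to -0.0671 percentage points with all 3 genes, -0.0503 after thinning to 800 UMIs, -0.0558 without members with other markers, -0.0746 for Myh11-positive nuclei and -0.308 without replicate 2 of both ZT4 groups (leave-one-out range -0.0847 to 0.256). The genotype difference turned to -0.0421 without members with other markers (leave-one-out 0.0918 to 0.408). The time difference of Ren1-high nuclei turned to 0.00867 at Ren1 of 10 UMIs or more (leave-one-out -0.0299 to -0.00174, genotype 0.00555 to 0.0363). Leaving out libraries moved Ren1 over all nuclei from -0.779 to 0.131 CPM for time and from 0.420 to 1.25 CPM for genotype. The planned tests within Ren1-high nuclei gave no value, since 7 of 8 libraries held fewer than 10 such nuclei.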
